A study of Mus musculus with 6 samples.

Results

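Kallikrein-related peptidases are secreted serine proteases of the skin, and Spink5 encodes LEKTI, an inhibitor of some of them, such as Klk5 and Klk7. The 7 genes described here are the proteases Klk5, Klk6, Klk7, Klk8, Klk10 and Klk11 and the inhibitor Spink5, out of 22295 genes in the count table of RNA-seq libraries. All 7 passed the filter that left 21681 genes for the fit. The kallikreins were chosen on the same KO against WT values that are given here, and Spink5 was added to them as this inhibitor. The values of all 7 genes are therefore a description and carry no test.

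The RNA came from GFP+ keratinocytes sorted from the back skin epidermis of K19 Itga3 KO mice, which carried K19 (Cre-ERT), mTmG and Itga3 fl/fl, and of WT mice, which carried K19 (Cre-ERT) and mTmG with intact Itga3. Itga3 encodes the α3 subunit of integrin α3β1, a laminin receptor of basal keratinocytes. Per the labels, mice of both genotypes received tamoxifen at 10 mg/ml over 4 days from 6 weeks of age, 30 µg of the mutagen DMBA at 7 weeks, and then 12.34 µg of the tumour promoter TPA bi-weekly for 2 weeks, so no library came from untreated skin. The study's methods differ from the labels on tamoxifen, with an earlier start, a lower injected concentration and added topical doses. The K19 promoter drives Cre in the hair bulge (HB), recombination there is incomplete, and the reporter marks recombined cells and their progeny wherever these lie in the epidermis. There were 3 libraries per genotype, each from 1 mouse, with total counts between 20578309 and 23670507. The columns name the genotype but could not be tied to numbered samples, so letters (a to c within each genotype) name the libraries here. A total of 3 counts, the upper limit that a count of 0 allows, was 0.127 to 0.146 counts per 1000000 (CPM), far below every member's level, and this limit covers counting error only. Itga3 itself was 298 ± 63.9 CPM in WT and 129 ± 5.22 CPM in KO (SD, n = 3 each), a log2 fold change of -1.20 (SE 0.13) with an adjusted p of 0.00283 by edgeR's quasi-likelihood test, and every KO library lay below every WT library. The adjusted p was 0.130 without WT c and 0.0934 without KO a.

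In the outer epidermis, kallikreins are made as inactive precursors in differentiating keratinocytes and are activated after secretion. Klk5 is trypsin-like and can activate other kallikreins, while Klk7 is chymotrypsin-like; together they cleave the desmosomal proteins that hold corneocytes together, so that the surface is shed. LEKTI binds these proteases and is lost in Netherton syndrome, in which the skin barrier fails.

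Klk5, the trypsin-like initiator of the cascade, was measured at 10.0, 11.5 and 9.66 CPM in the WT libraries a to c and at 27.1, 22.4 and 24.4 CPM in the KO libraries a to c, the order kept below. The KO libraries were all higher than the WT libraries, and the spread within either genotype was small. The group means were 10.4 ± 0.978 CPM in WT and 24.6 ± 2.34 CPM in KO (SD, n = 3 each), a log2 fold change of 1.25 (SE 0.13) or 2.37-fold.

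Klk7, the chymotrypsin-like protease of corneocyte shedding, had 63.5, 72.0 and 61.0 CPM in the WT libraries and 240, 128 and 129 CPM in the KO libraries. Again no KO library reached down to WT, but KO a stood well above KO b and KO c. The means were 65.5 ± 5.74 CPM and 166 ± 63.9 CPM (SD, n = 3 each), and the log2 fold change was 1.34 (SE 0.21), the highest of the 7 genes at 2.53-fold.

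Klk8, also called neuropsin, a trypsin-like protease of brain and epidermis, showed 16.1, 14.1 and 18.6 CPM in WT and 55.1, 31.0 and 30.3 CPM in KO. The order of libraries in KO was like that of Klk7, with KO a apart and the other two close to each other. The log2 fold change was 1.26 (SE 0.21), or 2.39-fold, from 16.3 ± 2.28 CPM in WT to 38.8 ± 14.1 CPM in KO (SD, n = 3 each).

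Klk10 was the fourth gene for which the genotypes did not overlap. It had 50.1, 55.7 and 60.1 CPM in WT and 135, 80.7 and 75.4 CPM in KO, and the gap between the genotypes was narrower than for Klk7. The means were 55.3 ± 5.03 CPM and 97.2 ± 33.2 CPM (SD, n = 3 each), with a log2 fold change of 0.81 (SE 0.19), or 1.76-fold.

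Klk6, or neurosin, a protease with a preference for arginine, was the most variable of the kallikreins. It had 48.0, 22.4 and 39.1 CPM in WT and 107, 69.7 and 39.5 CPM in KO, so that KO c lay below WT a. The means were 36.5 ± 13.0 CPM and 72.2 ± 34.0 CPM (SD, n = 3 each), and the log2 fold change of 0.99 came with an SE of 0.32.

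Klk11, a trypsin-like kallikrein, was the least abundant. It had 5.46, 8.98 and 9.48 CPM in WT and 9.44, 10.3 and 11.9 CPM in KO, and KO a fell just under WT c. The log2 fold change was 0.40 (SE 0.21), or 1.32-fold, from 7.97 ± 2.19 CPM to 10.6 ± 1.28 CPM (SD, n = 3 each).

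Spink5, which encodes the multi-domain inhibitor LEKTI, did not share this direction. It had 72.8, 219 and 106 CPM in WT and 121, 150 and 105 CPM in KO, and the KO values lay inside the WT range. The WT libraries themselves differed 3.00-fold, with WT b at the top, whereas the KO libraries differed 1.42-fold. The means were 132 ± 76.5 CPM and 125 ± 22.4 CPM (SD, n = 3 each), and the log2 fold change was -0.08 (SE 0.30). It was 0.49 without WT b, 0.03 without KO c and 0.06 by limma-voom, so its sign changed with single libraries and with the tool, and it was -0.37 without WT a.

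**Figure D1:**
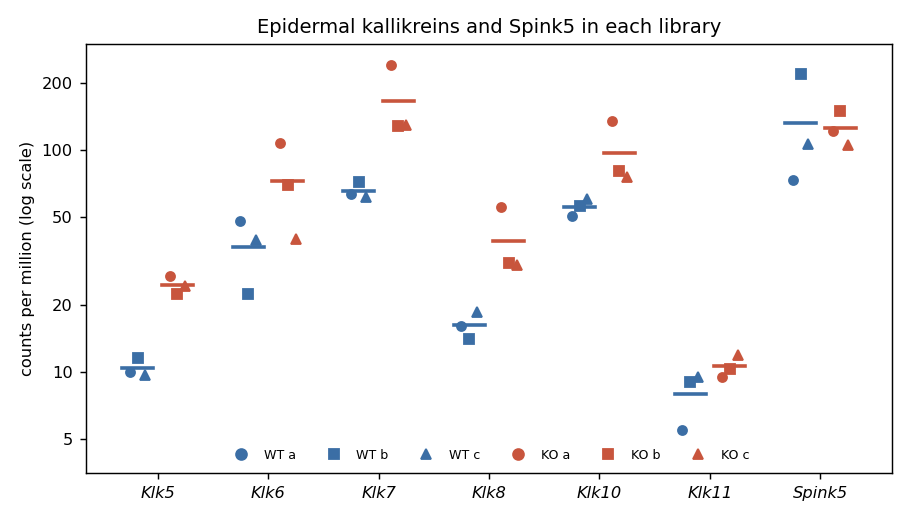
CPM of each gene on a log axis, for the WT (blue) and KO (red) libraries a (circle), b (square) and c (triangle), with a line at each group mean. Klk5, Klk7, Klk8 and Klk10 have every KO library above every WT library, Klk6 and Klk11 overlap slightly, and the KO values of Spink5 lie within its WT range of 72.8 to 219.

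In the fit across all genes, 3 of the 7 genes (Klk5, Klk7 and Klk8) were past an adjusted p of 0.05, all higher in KO, beside 0.673% of all genes tested in either direction and 0.461% higher in KO. Every KO library was above every WT library for 4 of the 7, beside 8.03% of all genes tested. Because the genes were chosen on this contrast, nothing is read from these shares. The count past the threshold was 0 without WT c, 1 (Klk7) without KO a and 1 (Klk5) by limma-voom, whereas DESeq2 gave 4 by adding Klk10. The median log2 fold change was 1.12 over the 6 kallikreins and 0.00 over all genes tested.

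KO a was the highest of all 6 libraries for Klk5, Klk6, Klk7, Klk8 and Klk10. Without it, the log2 fold changes were 1.17 for Klk5, 0.98 for Klk7, 0.91 for Klk8, 0.58 for Klk6 and 0.50 for Klk10, each still above 0. Klk5 moved least, since its KO libraries differed 1.21-fold against 1.87-fold for Klk7 and 2.72-fold for Klk6. Klk11 was highest in KO c, and its log2 fold change without KO a was 0.48. In WT no single library was high throughout, as Klk5 and Klk7 peaked in WT b, Klk6 in WT a, and Klk8, Klk10 and Klk11 in WT c. The sum of the 6 kallikreins was therefore nearly level in WT, at 193, 185 and 198 CPM, and was 574, 342 and 311 CPM in KO, a mean of 192 ± 6.75 CPM against 409 ± 144 CPM (SD, n = 3 each). WT b, with the highest Spink5, had the lowest kallikrein sum of the 6 libraries. Klk6 (22.4 CPM) and Klk8 (14.1 CPM) were at their lowest there, whereas Klk5 (11.5 CPM) and Klk7 (72.0 CPM) were at their WT highest.

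Levels of different genes were compared as CPM per kilobase of exon. In WT, Klk10 (40.3 ± 3.66), Klk7 (34.6 ± 3.03), Spink5 (27.7 ± 16.0) and Klk6 (24.1 ± 8.61 CPM per kb, SD, n = 3) came first, and each overlapped its neighbour in this order. Klk8 (10.6 ± 1.48), Klk5 (7.77 ± 0.732) and Klk11 (5.43 ± 1.49 CPM per kb, SD, n = 3) followed, and neighbours from Klk6 down did not overlap. The WT means lay between the 65.9th percentile of all tested genes with a length, for Klk11, and the 94.8th, for Klk10. In KO, Klk7 led with 87.4 ± 33.7, before Klk10 (70.8 ± 24.2), Klk6 (47.7 ± 22.5), Spink5 (26.2 ± 4.69), Klk8 (25.2 ± 9.18), Klk5 (18.4 ± 1.75) and Klk11 (7.19 ± 0.871 CPM per kb, SD, n = 3). Here neighbours overlapped except Klk5 and Klk11. Spink5 thus went from the third to the fourth place while its own level hardly differed. Without division by length, its long transcript (4785 bases of exon) put Spink5 first in WT and second in KO.

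**Figure D2:**
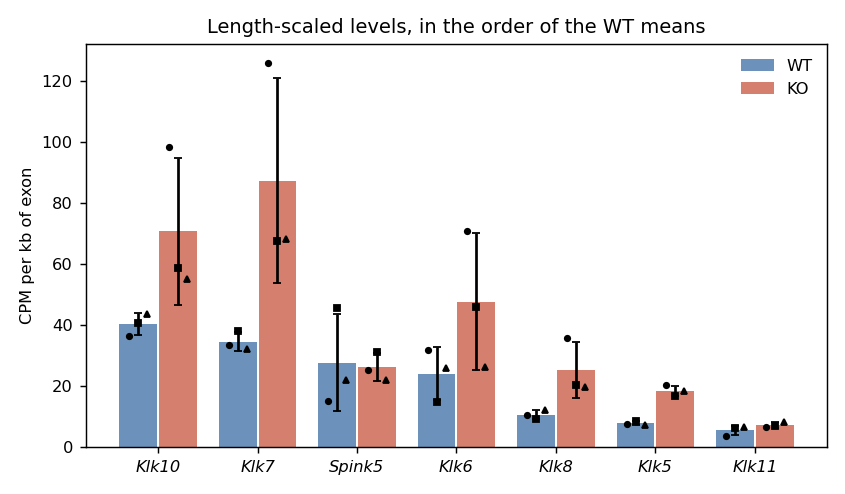
Bars give the mean CPM per kilobase of exon in WT (blue) and KO (red) with SD (n = 3), and black symbols the libraries a (circle), b (square) and c (triangle). Klk10 has the highest WT mean (40.3) and Klk7 the highest KO mean (87.4), and KO a carries the upper end of the error bars of Klk7, Klk10, Klk6 and Klk8.

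LEKTI inhibits Klk5, Klk7 and Klk14, and the summed level of these 3 proteases was set against that of Spink5 in each library. The ratio, from CPM per kilobase, was 3.03, 1.13 and 2.04 in the WT libraries and 6.13, 3.01 and 4.71 in the KO libraries. KO b fell just under WT a, so the genotypes overlapped. The means were 2.07 ± 0.954 and 4.61 ± 1.56 (SD, n = 3 each), 2.23-fold apart, and 2.25-fold apart without division by length. The protease sum alone did not overlap, at 45.1 to 51.5 CPM per kb in WT and 94.0 to 155 CPM per kb in KO. Klk5 and Klk7 were chosen on this same contrast, each without overlap, and Klk7 made up most of the sum in every library. Nothing is therefore read from the separation of the sum or from the higher mean ratio in KO. Within WT, the Spink5 level in the denominator ran from 15.2 to 45.7 CPM per kb. These are transcript levels, and neither protein nor protease activity was measured.

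**Figure D3:**
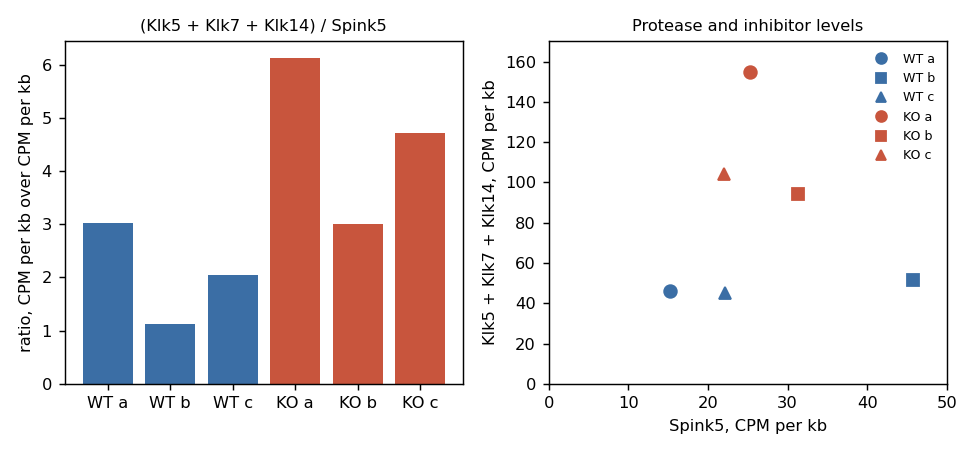
Left, the ratio of the summed levels of Klk5, Klk7 and Klk14 to Spink5 (CPM per kb over CPM per kb) in each library; right, the sum against Spink5, both in CPM per kb, for WT (blue) and KO (red). The KO libraries lie higher on the vertical axis, at 94.0 to 155 against 45.1 to 51.5, while on the horizontal axis WT b is farthest right at 45.7.

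The 6 kallikreins lie in 1 block of chromosome 7 (coordinates of mouse build 38, as in the count table), all on the plus strand. The block runs from Klk14 at 43690418 to the end of Klk4 at 43885804, 195 kb in all. Along it lie Klk11 (43774617-43779258), Klk10 (43781054-43785410), Klk8 (43797577-43803822), Klk7 (43811444-43816359), Klk6 (43824499-43832027) and Klk5 (43842269-43851181), while Spink5 is on chromosome 18 (43963235-44022501, plus strand). No 65-base window of the transcripts of any of the 7 genes recurred in a transcript of another gene, and 65 bases was the read length.

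Of 20 other tissue kallikreins listed, 5 were in the count table. Klk14, a trypsin-like protease that LEKTI also inhibits, had 6.56, 6.23 and 7.23 CPM in WT and 10.5, 12.1 and 21.8 CPM in KO. Its genotypes did not overlap, but unlike Klk7 and Klk8 it was highest in KO c. The log2 fold change was 1.15 (SE 0.24) with an adjusted p of 0.0645 by edgeR, and 0.00228 by DESeq2. Klk13 had a log2 fold change of 0.80 (adjusted p 0.258 by edgeR) and Klk9 one of 0.41 (adjusted p 0.501 by edgeR), and both were highest in KO a. Single KO libraries moved these values, to 0.76 for Klk14 without KO c and to 0.42 for Klk13 and 0.24 for Klk9 without KO a. Klk12 (1.14, and 1.83 without WT c; adjusted p 0.446 by edgeR) had at most 13 counts, and Klk4 at most 1. By edgeR 0 of these 5 passed, with 2 at an unadjusted p under 0.05, while DESeq2 called 1 and limma-voom 0. In all, 10 kallikreins of the block had over 3 counts, and the fitted log2 fold changes of all 10 were above 0, from 0.40 to 1.34. Of these, 6 were chosen on this same contrast, so nothing about the block is read from their sign. The other 4 were Klk14, Klk13, Klk12 and Klk9, of which 0 passed by edgeR.

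The genes next to the block were looked at for the same difference. Ctu1, which takes part in tRNA modification and is the nearest gene before Klk14, had a log2 fold change of -0.01 (SE 0.14, adjusted p 0.999 by edgeR). The noncoding gene 2310002F09Rik, which lies on the minus strand from Klk14 to Klk8, had 3 to 9 counts in WT and 12 to 22 in KO, with a log2 fold change of 1.46 (SE 0.47, adjusted p 0.219 by edgeR). Counting took strand into account, to keep reads of the block's plus-strand genes and of this gene apart. How completely it did so was not checked. Gm10109, the first gene of the count table after the block, begins 336 kb past its end and had at most 1 count. By edgeR no gene within 200 kb other than Klk5, Klk7 and Klk8 passed the threshold, while DESeq2 also called Klk10 and Klk14 among the kallikreins.

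**Figure D4:**
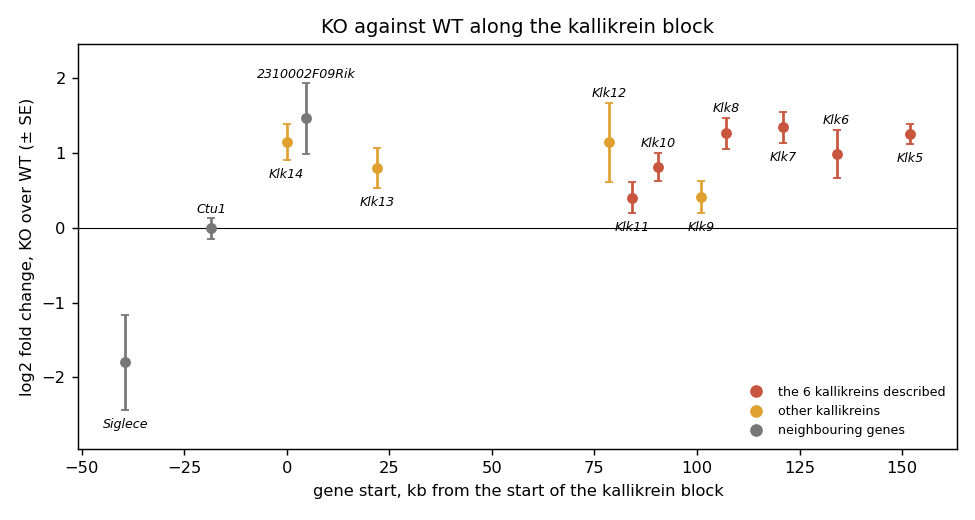
Fitted log2 fold change of KO over WT (± SE, from the F statistic of the edgeR test) for genes with over 3 counts in the block and just before it. The horizontal axis gives the distance of the gene start in kb from the start of Klk14. The kallikreins (red and yellow) lie between 0.40 and 1.34, Ctu1 before them at -0.01, and Siglece, with at most 9 counts, at -1.80.

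Bases before the transcription start are shown for the 4 kallikreins whose genotypes did not overlap, and for Klk11, which starts next to Klk10 and differed least. RefSeq promoter entries (build GRCm38.p6) matched all 6 kallikreins, with 8 entries because Klk6 and Klk11 have 2 starts each. The entries span 300 bases, and the 250 bases before the start are printed 5′ to 3′ with capitals for matches, on either strand, to the CACCC box, spelled as its name, the GC box (GGGCGG) and the other motifs given after the sequences. The start of Klk7 lies 150 bases before the gene start of the count table, and the other starts shown are the same in both.
Klk5, chr7:43842019-43842268, plus strand: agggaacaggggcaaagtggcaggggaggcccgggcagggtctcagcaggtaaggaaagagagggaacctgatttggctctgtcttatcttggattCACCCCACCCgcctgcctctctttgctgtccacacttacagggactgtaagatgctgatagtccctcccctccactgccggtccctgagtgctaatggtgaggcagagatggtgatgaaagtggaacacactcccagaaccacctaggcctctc
Klk7, chr7:43811044-43811293, plus strand: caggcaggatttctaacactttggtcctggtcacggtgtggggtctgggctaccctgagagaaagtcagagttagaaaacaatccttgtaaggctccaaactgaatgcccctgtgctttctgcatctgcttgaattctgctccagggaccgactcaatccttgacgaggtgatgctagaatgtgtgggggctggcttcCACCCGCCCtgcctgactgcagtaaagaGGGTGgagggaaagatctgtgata
Klk8, chr7:43797327-43797576, plus strand: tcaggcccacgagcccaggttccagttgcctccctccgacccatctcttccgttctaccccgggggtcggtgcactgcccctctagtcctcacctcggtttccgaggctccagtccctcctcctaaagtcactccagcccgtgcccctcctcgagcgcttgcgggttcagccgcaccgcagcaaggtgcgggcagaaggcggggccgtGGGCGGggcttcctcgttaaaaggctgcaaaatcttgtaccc
Klk10, chr7:43780804-43781053, plus strand: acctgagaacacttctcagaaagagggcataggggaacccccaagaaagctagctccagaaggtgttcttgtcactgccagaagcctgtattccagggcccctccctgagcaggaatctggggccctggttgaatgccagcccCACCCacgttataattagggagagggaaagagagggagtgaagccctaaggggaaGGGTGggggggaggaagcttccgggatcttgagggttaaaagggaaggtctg
Klk11, chr7:43774367-43774616, plus strand: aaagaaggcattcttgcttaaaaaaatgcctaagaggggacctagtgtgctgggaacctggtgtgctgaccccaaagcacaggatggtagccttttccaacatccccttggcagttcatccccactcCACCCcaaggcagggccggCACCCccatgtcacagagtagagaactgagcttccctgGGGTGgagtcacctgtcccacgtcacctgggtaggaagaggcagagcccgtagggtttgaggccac

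The CACCC box was found before the start of Klk5, Klk6, Klk7, Klk10 and Klk11, in 5 of the 8 entries, and is held by 57.5% of all 32851 promoter entries of this length. GGGCGG was found in 4 of the 8 entries, those of Klk6, Klk7 and Klk8, beside 35.7% of all entries, and in Klk7 it overlaps a CACCC match. AP-1 (TGANTCA), the Grainyhead motif (AACCNGTT) and a TATA box (TATAAA) were found in 0 of the 8, beside 7.81%, 2.09% and 13.6% of all entries. The TEAD motif (GGAATG) was found in 1 entry, of Klk6, beside 14.7%. The 4 kallikreins that did not overlap between genotypes therefore shared none of the 6 motifs, since Klk8 held a GC box without CACCC and Klk5 and Klk10 the reverse. These are matches of letters in a short window and no evidence of binding. GC content of the printed bases ran from 52.4% in Klk7 to 65.2% in Klk8, and the median over all entries was 52.4%.

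Upstream proteases that can activate kallikrein precursors gave no call, with 0 of 9 tested past the threshold by edgeR, by DESeq2 and by limma-voom and 2 at an unadjusted p under 0.05. These were Tmprss11e, a membrane-bound serine protease at 0.649 ± 0.282 CPM in WT and 1.50 ± 0.495 CPM in KO (SD, n = 3 each; adjusted p 0.224 by edgeR), and Plau, the urokinase plasminogen activator, with a log2 fold change of 0.41 (adjusted p 0.227 by edgeR). The median of the list was 0.04, beside 0.00 for all genes tested.

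Of 24 other inhibitors of serine and cysteine proteases tested, 1 passed and was higher in KO, and 0 were lower. This was Serpinb2, a plasminogen activator inhibitor, with 49.0, 43.6 and 60.4 CPM in WT and 92.9, 83.9 and 97.5 CPM in KO. Its log2 fold change was 0.84 (SE 0.12, adjusted p 0.0117 by edgeR), and its adjusted p ran up to 0.185 across the alternatives. The list's median was 0.20.

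Kallikrein substrates include desmosomal cadherins, corneodesmosin (Cdsn) and the protease-activated receptor F2rl1. Of 11 tested, 0 passed by edgeR and by limma-voom, 2 were at an unadjusted p under 0.05, and DESeq2 called 1. That one was Dsg1b, a desmoglein, with a log2 fold change of 0.61 (SE 0.13, adjusted p 0.0654 by edgeR and 0.00608 by DESeq2). Dsg1a, its close paralog, had 0.45 (adjusted p 0.369 by edgeR), and reads that fit both copies were not counted for either. The list's median was 0.24.

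Cell composition was followed by fixed marker lists, and fewer cells of a type and less RNA per cell cannot be told apart in bulk libraries. Hyperproliferative epidermis markers were higher in KO, as their summed level was 3940 to 5198 CPM in WT and 6595 to 8465 CPM in KO. The sum was highest in KO a, the library that was also highest for 5 of the 6 kallikreins. Within WT this sum varied more than that of the 6 kallikreins, which was 185 to 198 CPM. In that list 2 of 11 passed by edgeR and were higher (Sprr1a, log2 fold change 0.97, adjusted p 0.00402, and Krt17, 0.73, adjusted p 0.0409), and 0 were lower. All 11 had a log2 fold change above 0, with a median of 0.85, and 8 were at an unadjusted p under 0.05 by edgeR. Defb4 had at most 3 counts. The suprabasal list, whose cells normally make kallikreins, summed to 2697 to 3091 CPM in WT and 3539 to 3604 CPM in KO, and 1 of 13 rose (Sbsn, 0.96, adjusted p 0.00104 by edgeR). Without Sbsn, a sum added after the values were seen, the other 12 overlapped at 2202 to 2591 CPM in WT and 2554 to 2600 CPM in KO. Their log2 fold changes went both ways, with 0.07 for Krt1, 0.03 for Krt10, -0.69 for Lor, -0.26 for Flg and -1.09 for Flg2. Cnfn (0.72), Tgm1 (0.66) and Casp14 (0.51) were higher in KO, with adjusted p of 0.102, 0.183 and 0.191 by edgeR. Of all 13 genes, 9 were above 0 and 4 below. Upper follicle markers, a list that also holds Klk14, overlapped at 715 to 1488 and 1179 to 2112 CPM, with 1 of 9 higher (Plet1, 0.83, adjusted p 0.0325 by edgeR). Bulge markers, led by Krt15, were 19848 to 21889 CPM in WT and 14662 to 18522 CPM in KO, with 1 of 10 lower (Cd34, -0.72, adjusted p 0.0462 by edgeR). The 2 largest parts of this sum each overlapped between genotypes. Krt15 had 9798 to 15459 CPM in WT and 9616 to 12495 CPM in KO, and Postn 3511 to 7558 and 2886 to 3555 CPM. Of the 10 genes, 3 were above 0 and 7 below, with a median of -0.16, and Fzd10 was at 0.64 (adjusted p 0.0861 by edgeR). Inner root sheath and shaft markers overlapped at 90.0 to 109 and 92.3 to 128 CPM. Most of each sum was Gata3 (-0.03), at 75.2 to 85.3 CPM in WT and 73.4 to 79.9 CPM in KO. By edgeR 3 of 8 were higher, namely Krt25 (3.45, adjusted p 0.0256), Krt28 (1.83, adjusted p 0.0461) and Krt35 (3.13, adjusted p 0.0462). Krt25 had only 4 to 14 counts in WT and 28 to 143 in KO, and Krt35 6 to 8 and 15 to 120. DESeq2 called 4 hyperproliferative, 2 suprabasal, 2 upper follicle, 3 bulge and 3 root sheath markers, and limma-voom called 1, 1, 0, 0 and 0. By edgeR the calls were also 1, 1, 0, 0 and 0 with filterByExpr and where each library needed 10 counts. They were 0, 1, 0, 0 and 0 without KO a, and without WT c all 5 lists were at 0. At an unadjusted p under 0.05 by edgeR were 4 suprabasal, 5 upper follicle, 4 bulge and 4 root sheath markers. The part of these cell states in the kallikrein differences was not tested.

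WT b, the library with the highest Spink5, also had the highest sebocyte sum, 457 CPM in a WT range of 144 to 457 CPM and a KO range of 221 to 356 CPM, and its part in the Spink5 level was not tested. By edgeR 0 of 8 sebocyte markers passed, with 1 at an unadjusted p under 0.05 and 0 by DESeq2 and limma-voom. Markers of other cells were low, with summed immune markers of 2.98 to 6.71 CPM (Lyz2 at most 3 counts), melanocyte markers of 7.71 to 15.5 CPM and endothelial markers of 3.70 to 8.67 CPM (Cdh5 at most 3 counts) over all libraries. Fibroblast markers summed to 116 to 178 CPM in WT and 48.1 to 80.3 CPM in KO, most of it from Col1a1 and Col1a2, with Lum at most 3 counts. Of these 6 genes 3 had a log2 fold change above 0 and 3 below, with a median of 0.33. By edgeR 0 markers of these 4 lists passed, with 1 immune, 0 melanocyte, 2 endothelial and 5 fibroblast markers at an unadjusted p under 0.05; DESeq2 called 2 fibroblast and 1 endothelial marker, and limma-voom 0.

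Genes with a profile like that of the kallikreins were ranked by the root mean square difference of log2 CPM, each gene centred over the 6 libraries, among 8569 genes with a mean log2 CPM above 4. Nearest to the mean of the 6 kallikreins were Endou (0.10), Sprr1a, a cornified envelope precursor (0.12), Slc6a14, an amino acid transporter (0.12), Gjb2, which encodes connexin 26 (0.12), and Fam43a (0.12). All 5 were highest in KO a, as was the kallikrein sum, and Endou, for example, had 28.1, 34.4 and 35.2 CPM in WT and 87.6, 55.1 and 50.8 CPM in KO. The genes were picked for likeness over these 6 libraries, so high or low libraries shared here and below follow from the ranking. Single members had other nearest genes. Slc6a14 was nearest to both Klk7 (0.14) and Klk8 (0.13), which were also the closest pair among the 7 genes (0.19). Klk10 was nearest to Fam43a (0.09), Klk5 to Pitpnm3 (0.11) and Klk11 to Gtse1, a gene of the G2 phase of the cell cycle (0.09). Klk6 was nearest to Hbegf, which encodes a ligand of the EGF receptor (0.24), and both shared the low value in WT b, which was 25.0 CPM for Hbegf and 22.4 CPM for Klk6. Spink5 was nearest to Faah, a fatty acid amide hydrolase (0.20), which was also highest in WT b, with 13.9, 32.0 and 19.2 CPM in WT and 23.1, 21.9 and 22.1 CPM in KO. The farthest pair among the 7 genes was Klk6 and Spink5 (0.98). With a minimum of 2 in place of 4, the nearest genes became Khdrbs3 for Klk5, Ivl for Klk11 and Kif26b for Spink5, and those of the others stayed.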

How the data were processed

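RNA of sorted GFP+ keratinocytes was measured in 3 WT and 3 KO libraries. Per the study's methods, the authors made strand-specific poly(A) libraries, sequenced 65-base single reads, aligned them with TopHat 2.1.0 and Bowtie 1.1 to mouse build 38, and counted uniquely mapped reads per Ensembl gene with a strand-aware script; the deposited values are these raw counts. Genes with a count above 0 in any library were fitted with edgeR 4.0.16 in R 4.3.3 (quasi-likelihood test, TMM factors, Benjamini-Hochberg over 21681 genes). Each SE of a log2 fold change is its absolute value divided by the square root of the F statistic of this test. limma-voom (limma 3.58.1) and DESeq2 1.42.0 were alternatives, with other scalings, filters (filterByExpr, or 10 counts or more in each library) and each library left out. CPM used total counts of 20578309 to 23670507 multiplied by TMM factors, and log2 CPM a prior count of 2. Exon lengths came from GENCODE M21, which held 98.9% of the gene identifiers. Groups came from the genotype in the labels. P-values set the difference between genotypes against the spread between mice.

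The 7 genes and the lists were chosen with earlier results of these data known. Named genes were the 7 members, other kallikreins with over 3 counts, Itga3, listed genes past the threshold or otherwise the 2 with the smallest p, leading markers, the nearest genes to the block and those with the most similar profiles. The fits were tested on simulated data. No pair of libraries agreed within counting noise. The promoter sequence of Spink5 was not analysed here.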

Additional observations from a re-analysis of the deposited data

How the results depend on the processing

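The log2 fold changes of the 6 kallikreins stayed above 0 under every alternative run. Leaving out each library in turn gave 1.17 to 1.33 for Klk5, 0.58 to 1.28 for Klk6, 0.98 to 1.51 for Klk7, 0.91 to 1.41 for Klk8, 0.50 to 0.97 for Klk10, 0.20 to 0.55 for Klk11 and -0.37 to 0.49 for Spink5. For Spink5 the alternatives that kept all libraries gave -0.10 to 0.06.

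Of the 7 genes, 3 were past the threshold with TMM, with library size only and with upper-quartile factors, 4 by DESeq2, and 1 by limma-voom, by filterByExpr and where each library needed 10 counts; leaving out single libraries gave 0 to 3. Over all genes the count was 146, and 546 by DESeq2, 24 by limma-voom, 115 with library size only, 15 by filterByExpr, 12 where each library needed 10 counts, and 5 (without WT c) to 521 (without WT a) with single libraries left out. Filters tested fewer genes (13811 and 13054), and the cause of these changes in the count, with filters or without, was not tested. Other kallikreins gave 1 call by DESeq2, substrates 1 by DESeq2, and the other inhibitors 0 to 1 with libraries left out and 0 by limma-voom, by filterByExpr and where each library needed 10 counts. The Itga3 log2 fold change ran from -1.31 to -1.01 with single libraries left out. With the 250 bases before the start in place of the whole entries, as many of the 8 promoter entries held each of the 6 motifs.

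No paired analysis was possible because neither the labels nor the column names link a WT mouse to a KO mouse. With 3 libraries per genotype, the SE of the Spink5 log2 fold change was 0.30, so a difference of that size could not be told from the spread between mice.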
